A study of Homo sapiens with 12 samples.

Results

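Mitosis in these myeloma cells was followed through 54 genes of G2, mitosis and mitotic exit, chosen by gene symbol from a list of proteins that drive mitotic entry, build the spindle and chromosomes, divide the cell or end mitosis. Each gene was read from the probe set, a group of short probes for 1 transcript, with the highest mean over 12 arrays. All 54 genes passed the filter on low signal, among 14725 genes tested. They were sorted by known function into 8 roles, from the cyclin and CDK1 engine to transcription regulators.

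The arrays measured total RNA of H929, an established human line of myeloma, the malignancy of antibody-secreting plasma cells, in 4 groups with 3 arrays each. In the hairpin arm, H929 cells were infected with a hairpin called shGFP (the control) or shBCL9, and in both groups cells positive for the green fluorescent protein GFP were sorted by flow cytometry. The labels do not say how a GFP sort was combined with a hairpin named for GFP. In the microRNA arm, H929 cells were transfected with cel-miR-67, a worm microRNA used as control, or with members a to e of the human miR-30 family. The labels do not say whether these 5 microRNAs were pooled, and they give no dose or time for any group. Nor do they state that replicate arrays represent separate cultures: p-values measure only the spread between arrays, which may be technical.

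Progress into mitosis depends on cyclin B bound to CDK1, a kinase held inactive by WEE1 and released by CDC25 phosphatases. PLK1 and the Aurora kinases then organise the spindle and chromosome attachment, and the anaphase-promoting complex, a ubiquitin ligase activated by CDC20, marks securin and cyclin B for destruction so that chromosomes part and the cell divides. Transcripts of this programme peak together in G2 and mitosis. Their promoters are known for the cell cycle homology region, an element read by the DREAM repressor and by the MYB-MuvB and FOXM1 activators, often beside CCAAT boxes. In a bulk sample, fewer cells in G2 and mitosis and less RNA per such cell cannot be told apart.

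The mature sequences below show the transfected agent. Members a, c and e of the family are given from RefSeq (GRCh38.p14), with the seed (bases 2 to 8), the stretch that pairs with target RNAs, in capitals.
hsa-miR-30a-5p: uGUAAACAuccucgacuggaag
hsa-miR-30c-5p: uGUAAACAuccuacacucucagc
hsa-miR-30e-5p: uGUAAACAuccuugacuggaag
The 3 sequences share the seed GUAAACA and differ in their later bases. They are encoded on chromosomes 6 (miR-30a) and 1 (miR-30c and miR-30e).

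Members b and d are not analysed here by sequence. The median log2 intensity of an array was 5.46 to 5.53, and arrays of the same group correlated at 0.997 to 0.998 across genes. All 10 plasma cell markers examined were above the filter level (4.86 to 4.95) in all arrays, at 9.41 to 14.28. Of 26 markers of other cell types on the array, 15 passed the filter. MS4A1 (B cells), CD2 (T cells), LYZ and MPO (myeloid cells) and EPCAM (epithelium) stayed below it in every array, while PAX5, CD22 and BLK of B cells (5.07 to 6.51), CD3D, CD3E and GNLY of T and NK cells (5.11 to 6.29), CSF1R and ITGAM of myeloid cells (5.17 to 5.95) and HBB, ALAS2 and AHSP of erythroid cells (5.09 to 7.60) passed. Of the stromal and epithelial list COL1A1, DCN, KRT8 and CDH1 passed (3.34 to 7.60), and CDH1 was at 3.58 in shGFP and 3.78 in shBCL9 against 5.99 with cel-miR-67 and 5.65 with miR-30. The summed level of each of these 5 lists, as the log2 of summed intensities, lay between 7.34 and 8.57 in every array, against 15.58 to 16.07 for the plasma cell list. Of the 15, CD22 (0.25) and GNLY (-0.44) were called with shBCL9 and 0 with miR-30, and their part in the results was not tested. BCL9, the target of the hairpin, read 7.88 ± 0.01 (SD, n = 3) in shGFP and 7.73 ± 0.12 in shBCL9, and the groups did not overlap. Its log2 difference of -0.15 ± 0.07 (SE) was not called in limma (adjusted p = 0.0874), so shBCL9 is used below as the name on the label.

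Most of these mitotic transcripts were more abundant in the miR-30 arrays than in the cel-miR-67 arrays. Of the 54 genes, 45 rose and 0 fell in limma (adjusted p under 0.05 over all genes tested), against 4.98% of all genes called in that comparison (2.34% higher and 2.63% lower). The changes were modest, with a median log2 change of 0.39 and a range of -0.04 to 0.83, beside a median of -0.02 over all genes tested. In 48 of the 54 all 3 miR-30 arrays lay above all 3 cel-miR-67 arrays, against 10.0% of all genes, and 11 of the 54 reached 1.5-fold. The 1.5-fold count was made for the members only. The 3 miR-30 arrays were alike: against the control mean of each gene, the median member stood at 0.39, 0.37 and 0.40, with 53, 51 and 52 of the 54 genes above that mean.

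The shBCL9 arrays showed no common direction. Of the 54 genes, 16 rose, 9 fell and 29 did not pass the test, against 41.5% of all genes called (18.7% higher and 22.9% lower). The median log2 change was 0.09, with a range of -0.69 to 0.79, beside 0.03 over all genes tested. All shBCL9 arrays lay above all shGFP arrays for 21 members and below them for 11, against 24.8% and 27.2% of all genes. In this arm 2 members reached 1.5-fold, also counted for the members only. The map of all 54 genes by array shows both patterns.

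**Figure D1:**
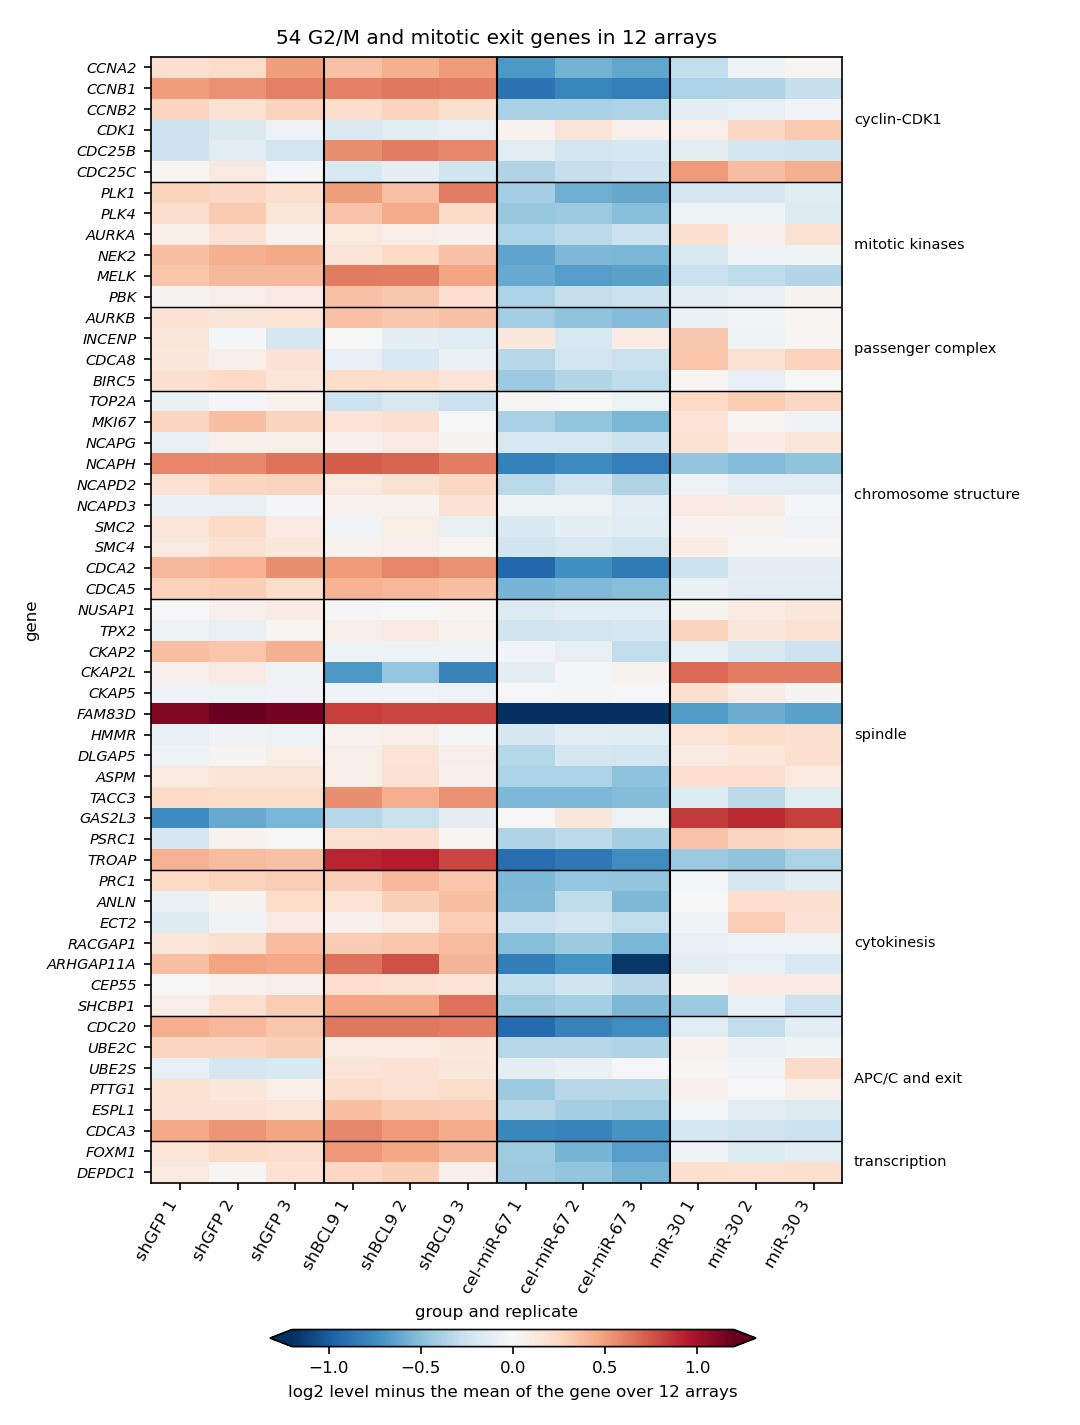
Level of each of the 54 genes in each of the 12 arrays, as the log2 level minus the mean of that gene over the 12 arrays (colour, red higher, blue lower; the scale ends at 1.2), with genes grouped by role. The cel-miR-67 arrays are the bluest block and the miR-30 arrays lie closer to the 12-array mean, while the shBCL9 and shGFP arrays differ in single genes such as CDC25B and CKAP2L.

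Some measures of RNA quality and of the array reaction moved with the hairpin and another did not. The ACTB 3' to 5' difference, which grows as RNA is degraded, was 1.30 ± 0.11 (SD, n = 3) in shGFP and 1.67 ± 0.08 in shBCL9, the 18S rRNA signal was 12.38 ± 0.07 and 13.23 ± 0.02, and the poly-A spike-in signal was 7.15 ± 0.17 and 6.48 ± 0.48. The hybridisation spike-in signal, not used as a covariate, was 11.45 ± 0.09 and 11.23 ± 0.07. Each of these measures gave p = 0.1 in a two-sided exact permutation test, which cannot give less with 3 arrays a group. The GAPDH 3' to 5' difference, a second measure of the same kind, was 0.136 ± 0.019 and 0.131 ± 0.021 (exact permutation p = 0.5). With the ACTB difference as a covariate 3 members were called higher and 4 lower in shBCL9, with the poly-A signal 9 and 4, and with the 18S signal 0 and 0, when 3 and 8 of all genes were called. In the microRNA arm the ACTB difference was 2.16 ± 0.09 in cel-miR-67 and 2.07 ± 0.01 in miR-30 (exact permutation p = 0.4), and 18S was 12.50 ± 0.05 and 12.64 ± 0.04 (exact permutation p = 0.1). The hybridisation spike-in signal was 11.38 ± 0.02 and 11.39 ± 0.15 (exact permutation p = 0.9). In the microRNA arm 43 members were called higher with the ACTB covariate and 44 with the poly-A covariate. With the 18S covariate 14 were called, of 41 genes called higher in all, while the median change of the members was 0.36. The part of RNA quality in these results was not tested beyond these fits.

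The cyclin and CDK1 engine rose in 4 of its 6 genes with miR-30, and the phosphatase genes CDC25B and CDC25C parted. CDC25C, which encodes an activator of CDK1, read 8.52, 8.60 and 8.63 with cel-miR-67 and 9.39, 9.25 and 9.30 with miR-30. Its miR-30 arrays all stood above the controls, by 0.73 ± 0.06 (SE) (1.66-fold, adjusted p = 5.56e-05). In the hairpin arm CDC25C read 8.91, 8.99 and 8.86 in shGFP and 8.69, 8.77 and 8.64 in shBCL9, below the controls in every array. It fell there by 0.21 (SE 0.06, adjusted p = 0.0112), a call lost without shGFP replicate 2 (adjusted p = 0.0529). The call was also lost with the mean of probe sets. A second CDC25C probe set gave -0.09 with shBCL9, not called, and 0.47 with miR-30, called.

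CDC25B, which starts CDK1 activation at the centrosome, moved with the hairpin and hardly differed with miR-30. It read 9.36, 9.47 and 9.39 in shGFP, 10.17, 10.23 and 10.19 in shBCL9, 9.49, 9.39 and 9.40 with cel-miR-67 and 9.49, 9.40 and 9.37 with miR-30. The shBCL9 arrays stood clear above the other 9, which overlapped. The rise in shBCL9 was 0.79 ± 0.05 (SE) (1.73-fold, adjusted p = 1.82e-07), the largest among the members there, while miR-30 differed by -0.0044 (95% interval -0.12 to 0.11). CDC25B was the 1 member whose change was called lower with miR-30 than with shBCL9, by 0.79 (adjusted p = 8.98e-06).

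CCNB1, the main mitotic cyclin, read 11.95, 11.99 and 12.05 in shGFP and 12.06, 12.08 and 12.07 in shBCL9. With cel-miR-67 it read 10.56, 10.66 and 10.63, and with miR-30 11.07, 11.08 and 11.17. The miR-30 arrays were above their controls and below every array of the hairpin arm. The miR-30 change was 0.49 ± 0.05 (SE) (adjusted p = 0.000225), and the shBCL9 change of 0.07 ± 0.05 (SE) was not called. CCNA2, the cyclin of S phase and G2, rose with miR-30 by 0.51 ± 0.09 (SE) (adjusted p = 0.00863) and CCNB2 by 0.30 ± 0.05 (SE) (adjusted p = 0.00374). A second CCNB2 probe set gave -0.12 and was not called.

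CDK1, their catalytic partner, did not pass the test in either arm. It read 10.69, 10.76 and 10.86 in shGFP, 10.76, 10.80 and 10.84 in shBCL9, 10.98, 11.09 and 10.99 with cel-miR-67 and 10.99, 11.18 and 11.25 with miR-30. Treated and control arrays overlapped in both arms, and the microRNA arm lay above the hairpin arm. With miR-30 the difference was 0.12 ± 0.07 (SE) (95% interval -0.03 to 0.27, adjusted p = 0.372). Its 3 other probe sets gave 0.20, 0.21 and 0.02, also not called. With shBCL9 the dimmest of them was called lower (-0.38, adjusted p = 0.0168 over all probe sets), and the others were not called.

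**Figure D2:**
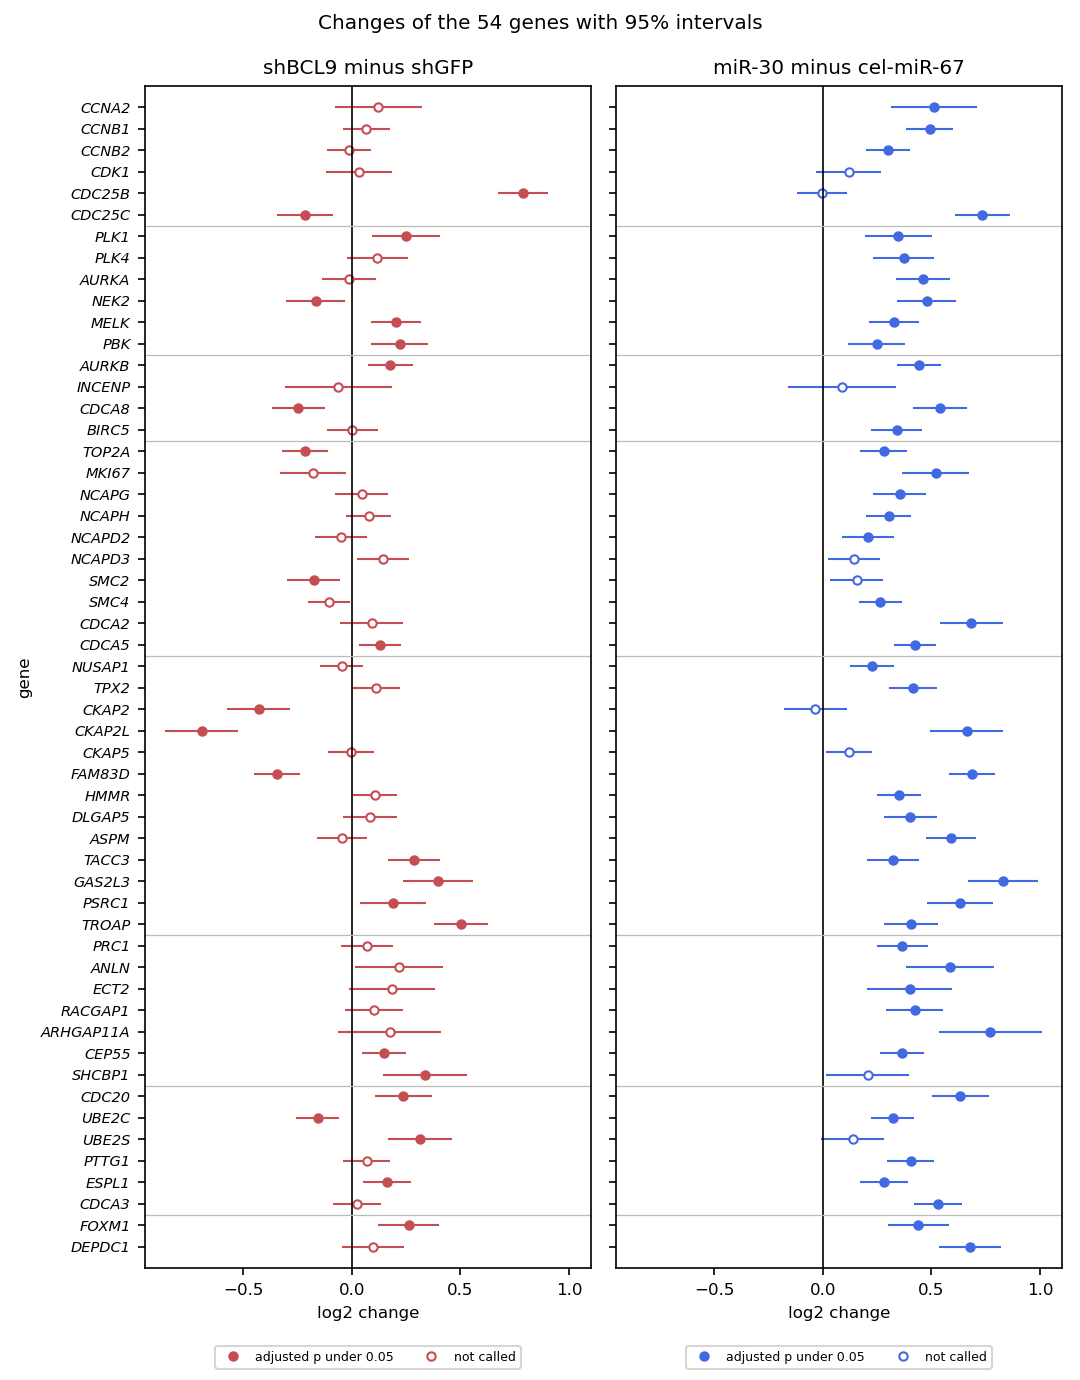
Log2 change of each of the 54 genes with its 95% interval from limma, shBCL9 minus shGFP on the left and miR-30 minus cel-miR-67 on the right, in the order of roles (grey lines). Filled points are called at an adjusted p under 0.05: 45 lie right of 0 with miR-30, and with shBCL9 16 lie right and 9 left.

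All 6 mitotic kinases rose with miR-30, from 0.25 (PBK) to 0.48 (NEK2). PLK1, which drives entry, spindle assembly and exit, read 6.17, 5.99 and 5.96 with cel-miR-67 and 6.36, 6.37 and 6.43 with miR-30, without overlap. The rise was 0.35 ± 0.07 (SE) (adjusted p = 0.0166), and it missed the threshold without cel-miR-67 replicate 2 or 3 or miR-30 replicate 2 or 3 (adjusted p up to 0.0731). AURKA, the spindle pole kinase, rose by 0.46 ± 0.06 (SE) (adjusted p = 0.000986), and PLK4, which controls centriole duplication, by 0.37 ± 0.07 (SE) (adjusted p = 0.00767). The PBK call (adjusted p = 0.0354) was lost without shGFP replicate 2, any cel-miR-67 array, or miR-30 replicate 2 or 3 (adjusted p up to 0.112).

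In shBCL9, 3 of the kinases rose and NEK2 fell, a description in an arm where 41.5% of all genes were called. PLK1 read 6.84, 6.82 and 6.77 in shGFP and 7.07, 6.92 and 7.19 in shBCL9, higher in every shBCL9 array. This rise of 0.25 ± 0.07 (SE) (adjusted p = 0.0144) was lost without shBCL9 replicate 3 (adjusted p = 0.0635). MELK rose by 0.20 ± 0.05 (SE) and PBK by 0.22 ± 0.06 (SE) (adjusted p = 0.00807 and 0.0112). NEK2, a kinase of centrosome separation, read 10.81, 10.87 and 10.90 in shGFP and 10.60, 10.68 and 10.80 in shBCL9, and 9.82, 9.91 and 9.90 and 10.26, 10.41 and 10.39 in cel-miR-67 and miR-30. Its treated arrays lay below the controls in the hairpin arm and above them in the microRNA arm. The shBCL9 fall of 0.17 sat at the threshold (adjusted p = 0.0496) and missed it when any array other than shGFP replicate 1, shBCL9 replicate 3 or miR-30 replicate 1 was left out (adjusted p up to 0.19). The difference between the 2 effects was 0.64 ± 0.09 (SE) (adjusted p = 0.000191).

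The chromosomal passenger complex, which corrects faulty chromosome attachment and then moves to the division plane, rose with miR-30 in 3 of its 4 genes. AURKB, its kinase, read 8.26, 8.19 and 8.16 with cel-miR-67 and 8.59, 8.65 and 8.70 with miR-30, and 8.84, 8.83 and 8.84 in shGFP and 9.03, 9.00 and 9.02 in shBCL9. The arrays of each treated group lay above their own controls. The rise was 0.44 ± 0.05 (SE) with miR-30 (adjusted p = 0.000294) and 0.18 ± 0.05 (SE) with shBCL9 (adjusted p = 0.00895). CDCA8, the borealin subunit, moved in opposite directions: it read 9.91, 9.87 and 9.96 in shGFP, 9.69, 9.60 and 9.71 in shBCL9, 9.44, 9.56 and 9.51 with cel-miR-67 and 10.12, 9.96 and 10.06 with miR-30. No treated array overlapped its controls. It fell by 0.25 with shBCL9 (SE 0.06, adjusted p = 0.00403) and rose by 0.54 ± 0.06 (SE) with miR-30 (adjusted p = 0.000287). BIRC5, or survivin, rose by 0.34 ± 0.05 (SE) with miR-30 (adjusted p = 0.00427). In shBCL9 its brightest probe set changed by 0.00, and other probe sets were called at 0.19 and at -0.17. INCENP, the scaffold, was called in neither arm.

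**Figure D3:**
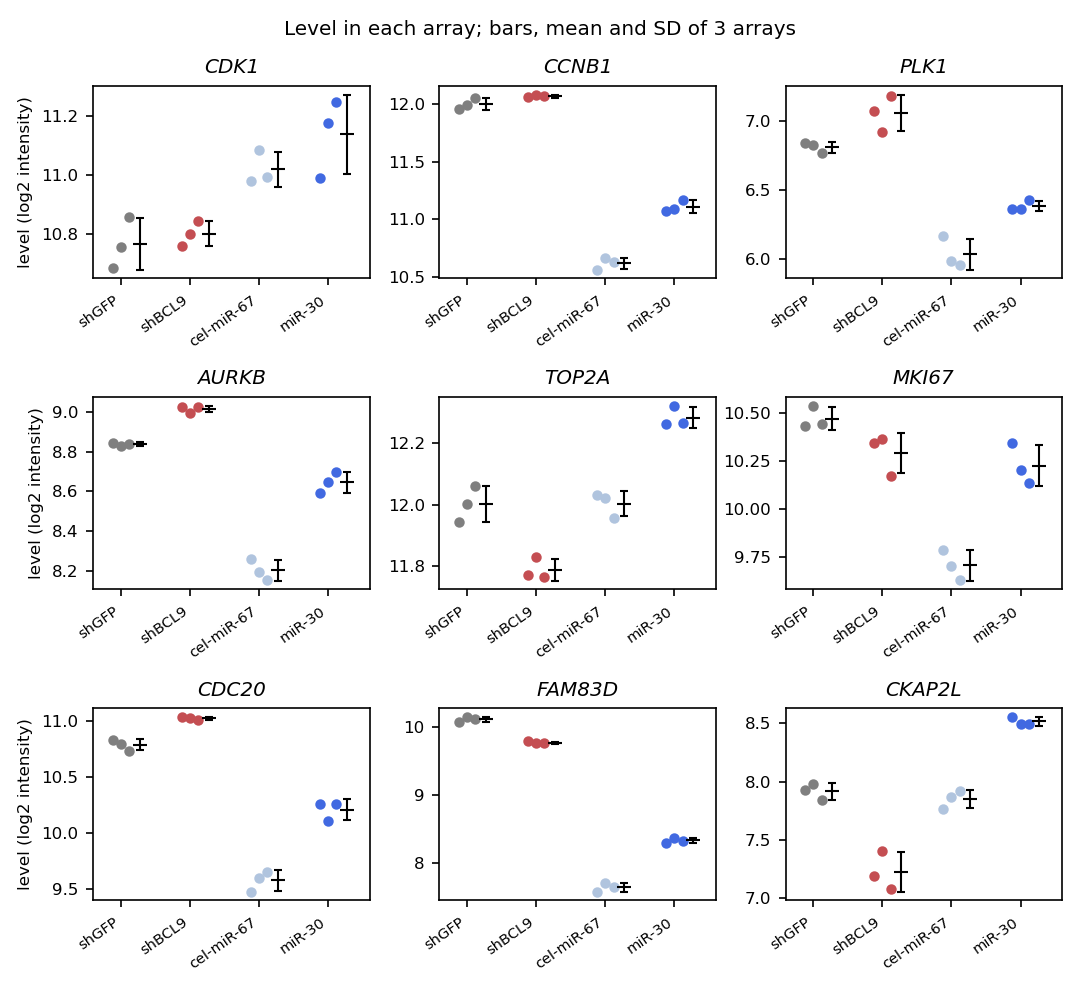
Level of 9 genes in each array (points; log2 intensity; 3 arrays a group) with the mean and SD of the group (black bars). CKAP2L falls in shBCL9 and rises in miR-30, FAM83D and CDC20 are lowest with cel-miR-67, and the CDK1 arrays of treated and control groups overlap in both arms; vertical scales differ between genes and do not start at 0.

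Genes of chromosome structure rose with miR-30 in 8 of 10 cases. MKI67, which coats mitotic chromosomes and is the antigen of the Ki-67 stain, read 9.79, 9.70 and 9.63 with cel-miR-67 and 10.34, 10.20 and 10.13 with miR-30, a gap wider than the spread in either group. The rise was 0.52 ± 0.07 (SE) (adjusted p = 0.00162). In the hairpin arm it read 10.43, 10.54 and 10.44 in shGFP and 10.34, 10.36 and 10.17 in shBCL9, without overlap, and its change of -0.18 ± 0.07 (SE) was not called (adjusted p = 0.0604), although it was without miR-30 replicate 1 (adjusted p = 0.0451). Its other 3 probe sets gave -0.06, 0.18 and 0.16 in shBCL9, not called, so the downward gap rests on the brightest. TOP2A, which untangles sister DNA, read 11.94, 12.001 and 12.06 in shGFP and 11.77, 11.83 and 11.76 in shBCL9, and 12.03, 12.02 and 11.96 and 12.26, 12.32 and 12.27 in cel-miR-67 and miR-30. The 2 control groups overlapped, shBCL9 was below them and miR-30 above. TOP2A fell by 0.21 with shBCL9 (adjusted p = 0.00387) and rose by 0.28 ± 0.05 (SE) with miR-30 (adjusted p = 0.00754).

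CDCA2, which targets a phosphatase to chromatin at mitotic exit, read 8.80, 9.01 and 8.89 with cel-miR-67 and 9.49, 9.62 and 9.64 with miR-30. Its 3 miR-30 arrays were above all controls, by 0.68 ± 0.07 (SE) (1.61-fold, adjusted p = 0.000188), and with shBCL9 its change of 0.09 ± 0.07 (SE) was not called. Condensin, the ring complex that compacts chromosomes, had 4 of its 6 members here called with miR-30: NCAPG (0.35), NCAPH (0.30), SMC4 (0.26) and NCAPD2 (0.21). The NCAPD2 call (adjusted p = 0.0495) held only without shGFP replicate 1 or shBCL9 replicate 3 and was lost without any other array (adjusted p up to 0.157). SMC2 (0.16) and NCAPD3 (0.14) were not called with miR-30. In shBCL9 SMC2 fell by 0.18 (adjusted p = 0.0237), a call lost without shGFP replicate 2 or shBCL9 replicate 1 or 3 (adjusted p up to 0.103). CDCA5, or sororin, which protects cohesin, rose with miR-30 by 0.42 ± 0.04 (SE) (adjusted p = 0.000291). Its shBCL9 rise of 0.13 (adjusted p = 0.0344) was lost without any shGFP array or without shBCL9 replicate 1 or 2 (adjusted p up to 0.117).

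Spindle and microtubule genes held the largest rise with miR-30 and the largest difference between the arms. Of 13, 11 rose with miR-30, beside 2.34% of all genes. With shBCL9 4 rose and 3 fell, a description beside 41.5% of all genes called there. CKAP2L, a spindle protein also called radmis, read 7.93, 7.98 and 7.84 in shGFP and 7.19, 7.41 and 7.08 in shBCL9. With cel-miR-67 it read 7.77, 7.87 and 7.92 and with miR-30 8.55, 8.49 and 8.49. The control groups overlapped, all shBCL9 arrays lay below them and all miR-30 arrays above. CKAP2L fell by 0.69 with shBCL9 (SE 0.08, adjusted p = 1.62e-05) and rose by 0.66 ± 0.08 (SE) with miR-30 (adjusted p = 0.000602). The difference of 1.35 ± 0.11 (SE) was the largest of the 54 (adjusted p = 2.42e-06).

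FAM83D, which brings casein kinase 1 to the spindle, differed most between the control groups. It read 10.08, 10.15 and 10.11 in shGFP, 9.79, 9.76 and 9.76 in shBCL9, 7.57, 7.71 and 7.64 with cel-miR-67 and 8.29, 8.37 and 8.32 with miR-30. The groups formed 4 separate levels with no overlap. FAM83D fell by 0.34 with shBCL9 (adjusted p = 0.000117) and rose by 0.69 ± 0.05 (SE) with miR-30 (1.61-fold, adjusted p = 1.99e-05). The effects differed by 1.03 ± 0.07 (SE) (adjusted p = 4.78e-07), the smallest adjusted p of the members.

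GAS2L3, which links actin to microtubules, showed the largest miR-30 rise of the members. It read 8.01, 8.13 and 7.94 with cel-miR-67 and 8.84, 8.89 and 8.84 with miR-30, a rise of 0.83 ± 0.07 (SE) (1.78-fold, adjusted p = 0.000113). In the hairpin arm it read 7.25, 7.40 and 7.45 in shGFP and 7.66, 7.73 and 7.89 in shBCL9, a rise of 0.40 ± 0.07 (SE) (adjusted p = 0.000977). Treated arrays lay above controls in both arms. A second GAS2L3 probe set changed by 0.71 with miR-30 and by -0.03, not called, with shBCL9. TROAP, a spindle and centrosome protein, read 10.32, 10.28 and 10.25 in shGFP and 10.81, 10.84 and 10.71 in shBCL9, a rise of 0.50 ± 0.06 (SE) (adjusted p = 2.04e-05) without overlap. Its other probe set likewise gave -0.03 there, so the TROAP and GAS2L3 rises in shBCL9 rest on their brightest probe sets. With miR-30 the TROAP probe sets gave 0.41 and 0.33, both called.

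CKAP2, a microtubule stabiliser, was the 1 spindle gene without an upward difference with miR-30. It read 10.58, 10.55 and 10.65 in shGFP, 10.16, 10.16 and 10.17 in shBCL9, 10.18, 10.12 and 9.93 with cel-miR-67 and 10.13, 10.03 and 9.97 with miR-30. It fell by 0.43 with shBCL9 (SE 0.07, adjusted p = 0.000251), below every shGFP array, and the miR-30 arrays overlapped their controls (-0.04, adjusted p = 0.821). Its 2 other probe sets gave 0.28 and 0.23 with miR-30, not called. With shBCL9 they gave -0.15 and -0.14, the same direction but not called, so the CKAP2 call there rests on the brightest. ASPM, which focuses spindle poles, read 10.43, 10.43 and 10.31 with cel-miR-67 and 11.01, 11.01 and 10.92 with miR-30, a rise of 0.59 ± 0.05 (SE) (adjusted p = 0.000113), and its shBCL9 change of -0.04 was not called. PSRC1 rose with miR-30 by 0.63 ± 0.07 (SE) (adjusted p = 0.000374), and TPX2, which activates AURKA, by 0.42 ± 0.05 (SE) (adjusted p = 0.000858). DLGAP5 (0.40), HMMR (0.35), TACC3 (0.32) and NUSAP1 (0.23) were called as well. The NUSAP1 call (adjusted p = 0.0153) was lost without cel-miR-67 replicate 1 or 2 or miR-30 replicate 2 or 3 (adjusted p up to 0.0583). CKAP5, a microtubule polymerase, was called in neither arm. TACC3 rose with shBCL9 by 0.29 ± 0.05 (SE) (adjusted p = 0.0011). The PSRC1 rise there (0.19, adjusted p = 0.0434) held only without shGFP replicate 2, shBCL9 replicate 3 or miR-30 replicate 1 and missed the threshold without any other array (adjusted p up to 0.164).

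Cytokinesis genes rose with miR-30 in 6 of 7 cases. ARHGAP11A, a regulator of the GTPase RhoA, read 5.43, 5.55 and 5.10 with cel-miR-67 and 6.14, 6.17 and 6.08 with miR-30. The miR-30 arrays were close together above a wider control group (SD 0.23), and the rise was 0.77 ± 0.11 (SE) (1.71-fold, adjusted p = 0.00212). ANLN, or anillin, the scaffold of the contractile ring, rose by 0.59 ± 0.09 (SE) (adjusted p = 0.00426). PRC1 (0.37) and RACGAP1 (0.42) of the midzone, CEP55 (0.37) of the abscission site and ECT2 (0.40), the activator of RhoA, were also called. ECT2 (adjusted p = 0.0258) lost its call without any cel-miR-67 array or without miR-30 replicate 2 or 3 (adjusted p up to 0.109).

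SHCBP1, a midbody protein, was called in the other arm. It read 11.30, 11.42 and 11.52 in shGFP, 11.70, 11.70 and 11.87 in shBCL9, 10.78, 10.81 and 10.69 with cel-miR-67 and 10.79, 11.14 and 10.97 with miR-30. The hairpin groups did not overlap and the microRNA groups did. It rose by 0.34 ± 0.09 (SE) with shBCL9 (adjusted p = 0.00865), and with miR-30 its change of 0.21 ± 0.09 (SE) was not called (adjusted p = 0.201). The difference between these effects was not called either (-0.13, adjusted p = 0.475). CEP55 rose with shBCL9 by 0.15 (adjusted p = 0.0229), a call lost without shGFP replicate 1 or 2 or shBCL9 replicate 1 or 2 (adjusted p up to 0.0723).

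Genes of the anaphase-promoting complex and mitotic exit rose with miR-30 in 5 of 6 cases. CDC20, the activator of that complex at anaphase, read 10.83, 10.79 and 10.73 in shGFP and 11.03, 11.03 and 11.01 in shBCL9. With cel-miR-67 it read 9.47, 9.60 and 9.65 and with miR-30 10.26, 10.10 and 10.26. Each treated group lay above its controls. CDC20 rose by 0.63 ± 0.06 (SE) with miR-30 (1.55-fold, adjusted p = 0.000165) and by 0.24 ± 0.06 (SE) with shBCL9 (adjusted p = 0.00734), and the miR-30 effect was larger by 0.40 ± 0.09 (SE) (adjusted p = 0.00442). CDCA3 rose with miR-30 by 0.53 ± 0.05 (SE) (adjusted p = 0.000164), PTTG1, the separase inhibitor securin, by 0.40 ± 0.05 (SE) (adjusted p = 0.000863) and ESPL1, or separase, by 0.28 ± 0.05 (SE) (adjusted p = 0.0082).

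The ubiquitin-conjugating enzymes of this complex parted. UBE2C, which starts the chain, read 12.40, 12.40 and 12.43 in shGFP, 12.25, 12.25 and 12.27 in shBCL9, 11.80, 11.80 and 11.78 with cel-miR-67 and 12.19, 12.07 and 12.09 with miR-30. It fell by 0.16 with shBCL9 (adjusted p = 0.0158) and rose by 0.32 ± 0.05 (SE) with miR-30 (adjusted p = 0.00217), with no overlap in either arm. UBE2S, which lengthens the chain, read 10.45, 10.35 and 10.36 in shGFP and 10.70, 10.72 and 10.68 in shBCL9, and 10.43, 10.47 and 10.55 and 10.56, 10.52 and 10.78 in cel-miR-67 and miR-30. It rose by 0.31 ± 0.07 (SE) with shBCL9 (adjusted p = 0.00245) without overlap, and its miR-30 change of 0.14 ± 0.07 (SE) was not called (adjusted p = 0.265). The ESPL1 rise with shBCL9 (0.16, adjusted p = 0.0203) was lost without shGFP replicate 3 or shBCL9 replicate 1 (adjusted p up to 0.0719).

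Both transcription regulators rose with miR-30. FOXM1, the activator of the late mitotic programme, read 8.23, 8.32 and 8.30 in shGFP, 8.60, 8.55 and 8.47 in shBCL9, 7.66, 7.52 and 7.42 with cel-miR-67 and 8.04, 7.92 and 7.96 with miR-30. Treated arrays were above their controls in each arm, by 0.44 ± 0.06 (SE) with miR-30 (adjusted p = 0.00291) and by 0.26 ± 0.06 (SE) with shBCL9 (adjusted p = 0.0063). DEPDC1, a transcriptional co-repressor, read 9.31, 9.27 and 9.18 with cel-miR-67 and 9.93, 9.93 and 9.94 with miR-30, a rise of 0.68 ± 0.07 (SE) (1.60-fold, adjusted p = 0.000175). Its 3 other probe sets rose by 0.56, 0.61 and 0.57.

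Set side by side, 13 members rose in both arms, against 0.652% of all genes, and 0 fell in both. Another 7 fell with shBCL9 and rose with miR-30 (CDC25C, NEK2, CDCA8, TOP2A, CKAP2L, FAM83D and UBE2C), and opposite calls were made for 0.903% of all genes. Because 45 of the 54 members rose with miR-30, most members called with shBCL9 were called in both arms. The counts of 13 and 7 follow largely from this and are given as a description. The remaining members were called with miR-30 alone (25), higher with shBCL9 alone (3: CDC25B, SHCBP1 and UBE2S), lower with shBCL9 alone (2: SMC2 and CKAP2) or in neither arm (4: CDK1, INCENP, NCAPD3 and CKAP5). Where the difference of effects was tested, 37 members had a higher miR-30 effect, against 14.6% of all genes, and 1 a lower one, against 11.7% (26.3% in either direction). The median difference was 0.32, beside -0.03 over all genes. The plot of each arm against the other shows that most of them lie above the line of equal change.

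**Figure D4:**
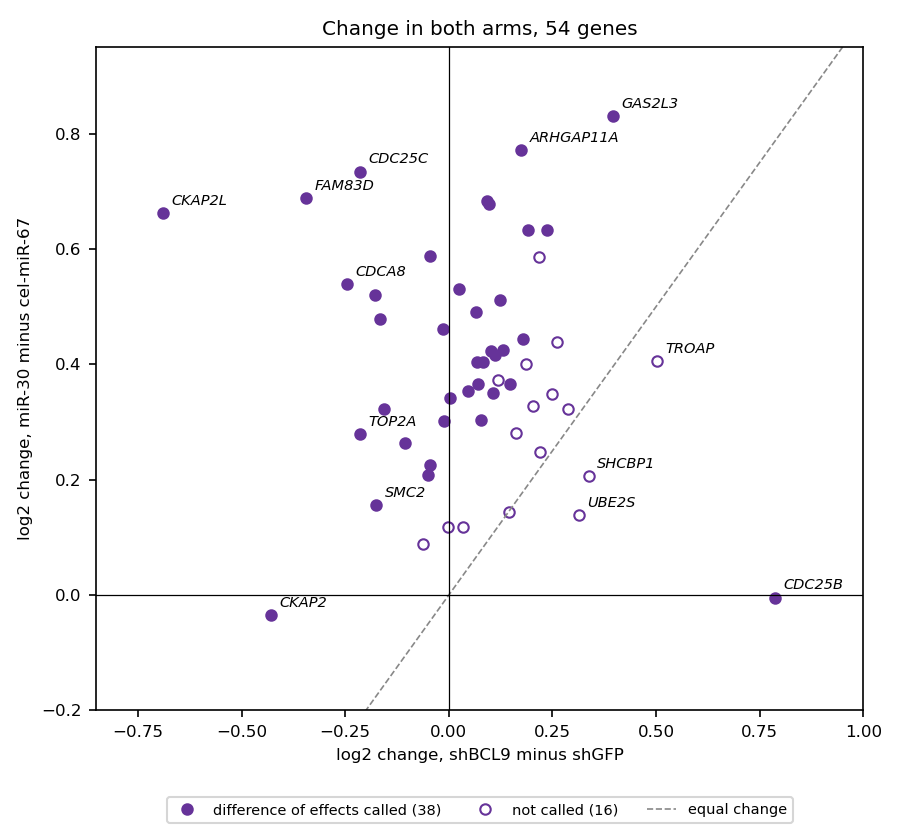
Log2 change with shBCL9 (x axis) against log2 change with miR-30 (y axis) for the 54 genes, with filled points where the difference of the 2 effects was called (38 genes). Filled points lie above the dashed line of equal change except CDC25B, at 0.79 with shBCL9 and -0.0044 with miR-30.

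The groups also differed in level across the arms, which was described and not tested, because delivery, sorting and arm cannot be told apart. In 45 of the 54 genes all cel-miR-67 arrays lay below all shGFP arrays, against 31.3% of all genes, and in 3 they lay above, against 34.8%. The median gap between these control groups was -0.55 over the members, from -2.48 (FAM83D) to 0.66 (GAS2L3), beside -0.02 over all genes. The cel-miR-67 mean was the lowest of the 4 groups in 45 members. In 30 of the 54 the miR-30 mean lay between the cel-miR-67 and shGFP means, and in 23 above the shGFP mean. These counts of group means were made for the members only, with no share over all genes. CDKN1A, the p53-responsive inhibitor of cyclin-dependent kinases, stood at 8.54 in shGFP, 9.14 in shBCL9, 11.86 with cel-miR-67 and 11.58 with miR-30 as group means. It rose by 0.61 with shBCL9 (adjusted p = 2.78e-06) and fell by 0.29 with miR-30 (adjusted p = 0.0118). The ACTB 3' to 5' difference also stood apart across the arms, at 1.30 ± 0.11 (SD, n = 3) in shGFP and 2.16 ± 0.09 in cel-miR-67. The part of either in the levels of the members was not tested.

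Probe sets not used above served as a check on the members. The 54 genes had 99 probe sets, of which 95 passed the filter, and 28 members had more than 1 that passed. Of the 41 further probe sets that passed, 40 changed upward with miR-30, 30 were called higher and 0 lower when all 27784 probe sets were tested. With shBCL9, 20 of the 41 changed upward, 9 were called higher and 5 lower. The share called over all 27784 probe sets was not counted, so the counts of both arms are given as a description. Signs differed between the probe sets of a gene in 2 members with miR-30 (CCNB2 and CKAP2) and in 12 with shBCL9. Some members not called with shBCL9 on their brightest probe set were called on another. Such calls were higher in CCNA2 (0.35), CCNB2 (0.32), SMC4 (0.31, adjusted p = 0.00586), DEPDC1 (0.21 and 0.20) and CDCA3 (0.16). They were lower in CDK1 and AURKA (-0.33), and went both ways in BIRC5 (0.19 and -0.17).

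Other genes of the pathway moved less uniformly. Of 15 regulators that restrain or release CDK1, 5 rose and 1 (CDKN1A) fell with miR-30. The kinase gene WEE1, which inhibits CDK1, rose by 0.50 (SE 0.05, adjusted p = 0.000113), BORA, an activator of PLK1, by 0.48, and CDC25A by 0.47. With shBCL9, 8 rose and 1 fell (CKS2, -0.36, named after its value was seen). The strongest calls there were the phosphatase subunit gene PPP2CA (0.48), CDKN1A and CDKN3 (0.49). Core subunits and regulators of the anaphase-promoting complex outside the list gave 1 call: of 15, FBXO5, the inhibitor known as EMI1, rose with miR-30 (0.61 ± 0.11 (SE), adjusted p = 0.00783), and 0 fell. With shBCL9, 2 of these 15 rose and 3 fell, among them ANAPC13 (-0.56).

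The transcription factors that read these promoters gave 2 calls with miR-30. Of 15 DREAM and MYB-MuvB genes, MYBL2 rose by 0.27 (adjusted p = 0.0107) and LIN37 fell by 0.38 (adjusted p = 0.00978), and with shBCL9 4 rose and 2 fell. Cohesin and its regulators gave 1 rise of 15 with miR-30, the shugoshin gene SGO2 (0.43), and 5 rises and 2 falls with shBCL9. Of 2 condensin subunits outside the list, NCAPG2 rose with miR-30 (0.27) and fell with shBCL9 (-0.38). Of 11 septin and abscission genes, 0 rose and 1, VPS4A, fell with miR-30 (-0.22), and with shBCL9 1 rose and 5 fell. Replication licensing and S phase genes rose in 8 of 16 cases with miR-30, led by MCM6 (0.34 ± 0.04 (SE), adjusted p = 0.00117), with a median of 0.22, and in 7 of 16 with shBCL9, and 0 fell in either arm. Over all these pathway lists 42 of 89 genes (47.2%) were called with shBCL9, beside 41.5% of all genes, so the shBCL9 counts of the lists are given as a description. With miR-30, 20 of 89 (22.5%) were called, beside 4.98% of all genes. Most of these 20 lay in the lists of CDK1 regulators (6 of 15) and of replication licensing and S phase (8 of 16). The share was 6.67% for the anaphase-promoting complex, 6.67% for cohesin, 9.09% for septins and abscission and 13.3% for DREAM and MYB-MuvB genes. These 4 shares rest on 1 or 2 calls each, and the pooled share does not describe them.

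The promoters of the members share sequence features that their selection did not use. RefSeq promoters (GRCh38.p14, 250 bases before to 50 after the start site) were found for 44 of the 54 genes. For each gene symbol 1 promoter, with 1 start site, was used, so motifs found only near another start site were not counted. The cell cycle homology region was searched as TTTGAA or TTCGAA on both strands, so TTCAAA counts as TTTGAA on the other strand. It was present in 29 of 44 members (65.9%), against 11.6% of the 11677 genes tested that had a promoter and 16.6% of all 27305 promoters. CCAAT, on both strands, was present in 68.2% of members, against 36.3% of genes tested and 35.7% of all promoters. Both motifs together were found in 52.3% of members, 4.89% of genes tested and 6.58% of all promoters. An E2F motif (TTTGGCGC or TTTCGCGC, both strands) was present in 2 members (4.55%), CDK1 and NUSAP1, against 1.82% of genes tested and 1.18% of all promoters. No overlap of the motifs occurred in the promoters shown here.

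**Figure D5:**
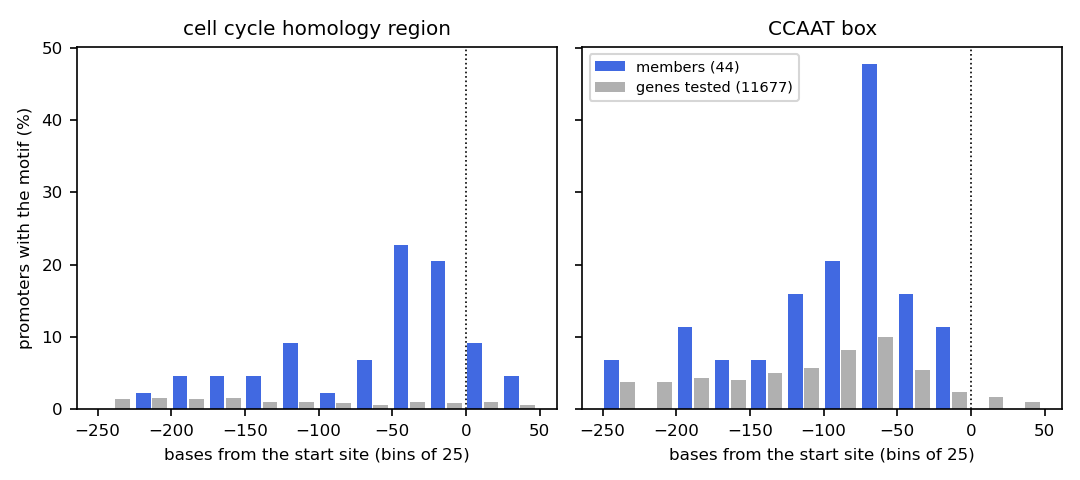
Share of promoters with a cell cycle homology region (left) or a CCAAT box (right) in each bin of 25 bases from the start site (dotted line), for 44 members (blue) and 11677 genes tested (grey). Members peak just before the start for the first motif (22.7% in the bin from -50) and from -75 for CCAAT (47.7%).

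The cell cycle homology region was found in both called and uncalled members. Among members called higher with miR-30, 24 of 35 promoters (68.6%) held it, and among those not called, 5 of 9 (55.6%). The 3 largest rises, GAS2L3, ARHGAP11A and CDC25C, had neither this motif nor CCAAT in the window of the start site used. Any other start sites of these genes were not searched, so the motifs may lie elsewhere in their promoters. The sequences below contrast promoters of called and uncalled members. DEPDC1, CKAP2L and CDC20 have the largest miR-30 rises among promoters with both motifs, while CDK1 and CDC25B, chosen after their values were seen, were not called with miR-30. The 250 bases before the start are shown, with both motifs in capitals.
DEPDC1 (chr1:68497083-68497332, minus strand): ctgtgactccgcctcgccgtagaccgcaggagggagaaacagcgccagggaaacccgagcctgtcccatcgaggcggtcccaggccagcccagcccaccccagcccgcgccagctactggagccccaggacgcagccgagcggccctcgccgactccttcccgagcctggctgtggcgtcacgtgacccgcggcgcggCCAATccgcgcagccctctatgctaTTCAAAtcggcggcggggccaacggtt
CKAP2L (chr2:112764610-112764859, minus strand): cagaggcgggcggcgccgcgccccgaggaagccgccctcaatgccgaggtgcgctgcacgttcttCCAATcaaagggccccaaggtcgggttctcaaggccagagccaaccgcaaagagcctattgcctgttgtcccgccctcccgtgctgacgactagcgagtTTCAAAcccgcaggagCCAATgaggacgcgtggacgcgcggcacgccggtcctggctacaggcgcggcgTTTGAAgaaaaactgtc
CDC20 (chr1:43358731-43358980, plus strand): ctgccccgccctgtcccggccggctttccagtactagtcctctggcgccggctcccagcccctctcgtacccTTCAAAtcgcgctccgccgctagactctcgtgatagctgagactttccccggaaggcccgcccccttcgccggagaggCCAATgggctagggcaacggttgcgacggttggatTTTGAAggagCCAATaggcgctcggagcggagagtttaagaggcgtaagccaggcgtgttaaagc
CDK1 (chr10:60778081-60778330, plus strand): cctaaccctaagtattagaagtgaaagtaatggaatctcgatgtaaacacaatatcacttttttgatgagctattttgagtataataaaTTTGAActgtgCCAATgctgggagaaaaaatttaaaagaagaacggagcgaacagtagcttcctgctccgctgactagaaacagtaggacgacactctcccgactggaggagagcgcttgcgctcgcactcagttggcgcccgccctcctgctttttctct
CDC25B (chr20:3786701-3786950, plus strand): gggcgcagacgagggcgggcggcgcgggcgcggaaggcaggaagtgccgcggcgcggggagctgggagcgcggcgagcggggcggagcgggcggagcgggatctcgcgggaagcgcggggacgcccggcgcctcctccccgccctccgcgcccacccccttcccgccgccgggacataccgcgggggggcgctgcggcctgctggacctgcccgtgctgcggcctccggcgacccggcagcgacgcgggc
Counted to the first base of the motif, with 0 at the start site, the cell cycle homology region of DEPDC1 begins at -27 and its CCAAT at -52. CKAP2L has the motifs at -17 and -86, and CCAAT at -70 and -185. CDC20 has them at -65 and -178, and CCAAT at -55 and -100. In CDK1 the motif lies farther out from the start site used, at -161, beside a CCAAT at -150. Any other start sites of CDK1 were not searched, so this distance holds for that site only. CDC25B, the member that rose most with shBCL9, holds neither in the window of the start site used. These matches are letters in a window and were not tested for binding.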

How the data were processed

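RNA of 12 samples of H929 cells was measured on arrays of 54675 probe sets. The values are log2 intensities that the authors deposited after RMA in affy, per the submitters' processing notes (versions not given). They were used without further normalization. Probe sets were named from the platform annotation (41097 had 1 gene symbol, 1801 several and 11777 none), and each gene was represented by its brightest one. Genes above the 40th percentile of an array in at least 3 arrays were kept. One linear model of 4 group means over the 12 arrays (limma 3.58.1 in R 4.3.3, lmFit and eBayes) gave the change with shBCL9, the change with miR-30 and the difference between both. Adjusted p-values are Benjamini-Hochberg values over 14725 genes, called under 0.05. RNA quality was compared with exact permutation tests, two-sided. Arrays have no read depth, and 3 per group limit the precision. The pipeline was tested on simulated data.

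The 54 genes, the pathway lists and the alternatives were chosen with earlier results of these data known. Values per array are given for the 8 largest calls of each comparison, for members called in both comparisons or among the 8 smallest adjusted p-values of the difference, and for CDK1, CCNB1, PLK1, AURKB, TOP2A, MKI67, FOXM1 and CDC20, in part as changes only. Pathway lists are represented by up to 3 called genes by adjusted p. Promoter and microRNA sequences came from RefSeq (GRCh38.p14). Plots used matplotlib 3.10.9 (Python 3.11.15). The alternatives were other filters, probe set rules, scalings, array weights, variance models, a replicate block, an adjusted p under 0.01, covariates for RNA quality, the arrays of one comparison alone, each array left out, and other motif settings.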

Additional observations from a re-analysis of the deposited data

Results flagged for a closer look

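For 38 of the 54 genes the change with miR-30 differed from the change with shBCL9 in limma's test of the difference itself (miR-30 effect minus shBCL9 effect, adjusted over all 14725 genes, of which 26.3% were called). Values are differences on the log2 scale, and every array of both arms entered the fit. The widest gaps, with the miR-30 effect higher, were those of CKAP2L (1.35), FAM83D (1.03), CDC25C (0.95), CDCA8 (0.78), MKI67 (0.70), NEK2 (0.64), ASPM (0.63) and ARHGAP11A (0.60). In 10 genes (CKAP2L, FAM83D, CDC25C, CDCA8, MKI67, NEK2, TOP2A, UBE2C, SMC2 and SMC4) the groups overlapped in neither arm, with shBCL9 under its control and miR-30 over its own, on the brightest probe set. This joint pattern was not counted over all genes. Taken singly, 27.2% of all genes lay under control with shBCL9 and 10.0% over control with miR-30. As 48 of the 54 members lay over control with miR-30, the 10 are given as a description. For SMC4 and MKI67 other probe sets went the other way with shBCL9 (0.31, called, for SMC4 and 0.18 and 0.16, not called, for MKI67). Gaps of middle size were found for CDCA2 (0.59), DEPDC1 (0.58), CDCA3 (0.51), TOP2A (0.49), UBE2C (0.48), AURKA (0.48), PSRC1 (0.44), GAS2L3 (0.43), CCNB1 (0.42) and CDC20 (0.40). Smaller ones were found for CKAP2 (0.39), CCNA2 (0.39), SMC4 (0.37), BIRC5 (0.34), PTTG1 (0.34), SMC2 (0.33), DLGAP5 (0.32), RACGAP1 (0.32), CCNB2 (0.31), NCAPG (0.31), TPX2 (0.30), PRC1 (0.30), CDCA5 (0.29), NUSAP1 (0.27), AURKB (0.27), NCAPD2 (0.26), HMMR (0.24), NCAPH (0.23) and CEP55 (0.22). CDC25B was called in the other direction (-0.79), with the shBCL9 effect higher.

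Of the 37 genes with a higher miR-30 effect, 33 kept the call when each of the 12 arrays was left out in turn. CCNA2, CEP55, NCAPD2 and NCAPH did not. The CCNA2 call was lost without any array other than shGFP replicate 1 or 2, shBCL9 replicate 3 or miR-30 replicate 1, and that of CEP55 without any other than shGFP replicate 1, cel-miR-67 replicate 2 or miR-30 replicate 1. The NCAPD2 call was lost without shGFP replicate 2 or 3, shBCL9 replicate 1, cel-miR-67 replicate 1 or 3 or miR-30 replicate 1. The NCAPH call was lost without shGFP replicate 3, shBCL9 replicate 3, cel-miR-67 replicate 1 or 3 or miR-30 replicate 1. The CDC25B call was kept in all 12. With the ACTB covariate 16 of the 37 kept the call, and with the poly-A covariate 26. Leaving aside 18S and the adjusted p under 0.01, 13 of the 37 kept it in every alternative that measured them. The ACTB 3' to 5' difference, the 18S signal and the poly-A signal moved with shBCL9 and less with miR-30, and their part in these differences was not tested beyond the covariate fits given with the other processing choices.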

How the results depend on the processing

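With miR-30, 45 members were called higher in the fit described, 40 to 45 when single arrays were left out, 30 of 38 measured with plain probe sets only, and 40 to 45 in the other alternatives except the 18S covariate, with 14. In all of them 0 were called lower. Leaving aside 18S and the adjusted p under 0.01, 37 of the 45 kept the call in every alternative that measured them. With shBCL9, 16 were called higher and 9 lower. Higher calls numbered 10 with plain probe sets (of the 16, 11 were measured there and 10 kept the call), 10 at an adjusted p under 0.01, 3 with the ACTB covariate, 0 with 18S and 9 with poly-A. Lower calls numbered 5 at 0.01, 4 with ACTB, 0 with 18S and 4 with poly-A. On the same count as for miR-30, 1 of the 16 higher and 3 of the 9 lower shBCL9 calls were kept throughout. The difference of effects was called higher in 37, in 16 with ACTB and in 0 with 18S, while its median over the members was 0.32, 0.41 and 0.48, and lower in 1, in 0 with plain probe sets or 18S and in 1 to 2 when single arrays were left out (2 without miR-30 replicate 3, with UBE2S added). With plain probe sets most lost calls are genes not measured there, CDC25B included. The cause of the other losses was not tested. The 18S signal differs between shGFP and shBCL9 by far more than within them. With it as a covariate, 12 of the members called with shBCL9 in the fit described changed sign. Their errors were 0.36 to 0.67 and their limma adjusted p 0.729 to 0.991, so their signs are not determined: CDC25C (0.0589), PLK1 (-0.353), AURKB (-0.0856), SMC2 (0.212), CKAP2L (0.0926), TACC3 (-0.0488), GAS2L3 (-0.193), PSRC1 (-0.460), CEP55 (-0.0358), SHCBP1 (-0.101), ESPL1 (-0.0300) and FOXM1 (-0.632). Members not called with shBCL9, CCNA2 and NCAPG among them, changed sign with 18S as well. The median shBCL9 change of the members went from 0.09 to -0.09. Of the members called with shBCL9, the ACTB covariate turned PSRC1 (-0.156, SE 0.12) and plain probe sets turned TROAP (-0.0316). BIRC5, not called with shBCL9 in the fit described, was called at -0.170 with plain probe sets. Other uncalled members changed sign too, such as PLK4 with ACTB and CCNB1 with plain probe sets. With ACTB the median shBCL9 change of the members was -0.0073. With miR-30 the mean of probe sets turned CCNB2 (-0.00294). The cause was not tested. Whether replicate numbers pair the arrays was not settled. Deviations of same-numbered arrays correlated at 0.050 to 0.100 in the hairpin arm and 0.091 to 0.226 in the microRNA arm. Differently numbered arrays gave -0.149 to 0.065 and -0.242 to 0.126, and not every array correlated best with its own number. A weak pairing is not excluded by these values. With the replicate block 18 members were called higher with shBCL9 and 43 with miR-30. The cell cycle homology region was found in 27 of 44 members within 150 bases before the start, or with TTTGAA alone, instead of 29.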
